A study of Homo sapiens with 20 samples.

Results

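The genes described here are 10 retinoid receptors and enzymes or carriers of retinoid metabolism: the retinoic acid receptors RARA, RARB and RARG, the retinoid X receptors RXRA and RXRB, the retinoic acid hydroxylases CYP26A1 and CYP26B1, the retinoic acid binding protein CRABP2 and the retinoid dehydrogenases DHRS3 and DHRS9. They were chosen by symbol, and all 10 were among the 28051 named genes of the RNAseq data. ATACseq regions were added where the deposited annotation lists 1 of these genes, which gave 9 of 8286 regions, 4 listed with RXRA, 3 with RARB, 1 with RXRB and 1 with DHRS9. The cells were HL60, a human acute myeloid leukemia line of promyelocytic type that matures along the neutrophil lineage in all-trans retinoic acid (ATRA). Every group carried Cas9 from a lentiviral CRISPR vector with puromycin resistance, and the knockout populations had been grown from single cells. The groups were Cas9 control and HK3-null, a label for disruption of the hexokinase gene HK3, each kept for 36 h in 1 µM ATRA or in 0.01% DMSO, the solvent. RNAseq was done on 3 replicates and ATACseq on 2 replicates of each of the 4 groups. The titles give a single knockout name to every HK3-null library, so whether replicates came from different clones is not given. The methods call the replicates biological, and p-values speak only for the spread between these samples, which may be technical.

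ATRA acts through heterodimers of a retinoic acid receptor and a retinoid X receptor, which sit on response elements in DNA and exchange corepressors for coactivators once the ligand binds. RARA is the receptor best known for granulocyte maturation and is fused to PML in acute promyelocytic leukemia, while RARB, CYP26A1 and DHRS3 are textbook targets of the ligand in many cell types. Cells also limit the signal: CYP26 enzymes hydroxylate retinoic acid, and DHRS3 reduces retinaldehyde back to retinol. CRABP2 works the other way, since it carries retinoic acid to its receptors in the nucleus. DHRS9 oxidizes retinol and other alcohols and is found in some macrophages.

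RNA values are normalized counts, that is read counts scaled between libraries by the authors and rounded, and each library held an estimated 22680592 to 37019617 counts before scaling. HK3 itself had 344, 302 and 346 normalized counts in the DMSO libraries labelled HK3-null against 90, 65 and 105 in Cas9 control, so its RNA was not lower where the label says it was disrupted. The authors report insertions or deletions at the site cut by Cas9, and loss of the protein by mass spectrometry, in their knockout lines. For HL60 that loss was seen after vitamin D3, given to induce HK3, in samples pooled over clones. Untreated HL60 control cells gave no HK3 spectra either. A count over the gene does not tell whether the transcript is intact, and the libraries are therefore called by their label throughout, as libraries labelled HK3-null or as values under the HK3-null label. Of 11 markers of HL60 or myeloid cells, 10 had at least 50 normalized counts in every library. Of 17 markers of other cell types, 11 stayed at 10 or fewer in every library and 5 were at 0 in all, but their summed level lay between 115 and 457 in Cas9 control and between 568 and 1614 under the HK3-null label. PECAM1, an adhesion receptor that myeloid cells also carry, moved with the groups. Its means were 52.3 and 155 in Cas9 control DMSO and ATRA and 524 and 1330 under the HK3-null label. COL1A1 went the other way between genotypes, with means of 112 and 21.3 in Cas9 control DMSO and ATRA and of 9.33 and 12.7 under the HK3-null label. The highest COL1A1 value in a library was 321. CD79A had 45 to 102 in every library. The part of these genes in the results below was not tested. The number of genes above 0 was 15031 to 16750, highest in Cas9 control DMSO replicate 1, and results that change without it are given below. In bulk RNA a change in the share of cells that express a gene and a change in RNA per cell cannot be told apart.

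Direct repeats of the retinoic acid response element half-site were looked for in the 23 RefSeq promoters of the 10 genes (GRCh38, 300 bases each, from 250 bases before to 50 after a start site). The half-site searched was AGGTCA, where the form GGGTCA and the form AGTTCA and the form GGTTCA were accepted too, on both strands, as 2 copies in 1 direction with 1, 2 or 5 bases between them. Other nuclear receptors share this half-site. Only 2 of the 23 promoters held such a repeat, both with a spacer of 5 bases, and they belong to RARB and CYP26A1, which were near 0 in DMSO and rose with ATRA. They are shown because both genes gave a large response from almost no RNA, with the 17 bases of the repeat in capitals. The RARB repeat starts 53 bases before a start site at position 25428263, inside exons of other annotated RARB transcripts, on chr3:25428204-25428232. The CYP26A1 repeat reads along the opposite strand, starts 90 bases before the second start site at position 93073893 and lies in the 5′ UTR of a longer CYP26A1 transcript, on chr10:93073797-93073825. Both are written along the plus strand, which is the gene's strand.
RARB site: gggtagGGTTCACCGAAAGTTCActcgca
CYP26A1 site: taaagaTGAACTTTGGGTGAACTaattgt
Of all 35116 RefSeq promoters of this length, 31 or 0.0883% held the repeat with 5 bases between the half-sites, and 91 or 0.259% held it with any of the 3 spacers. The promoters of DHRS3, DHRS9 and CYP26B1 held no match within these windows. A match describes the letters only, and binding was not measured here.

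**Figure D1:**
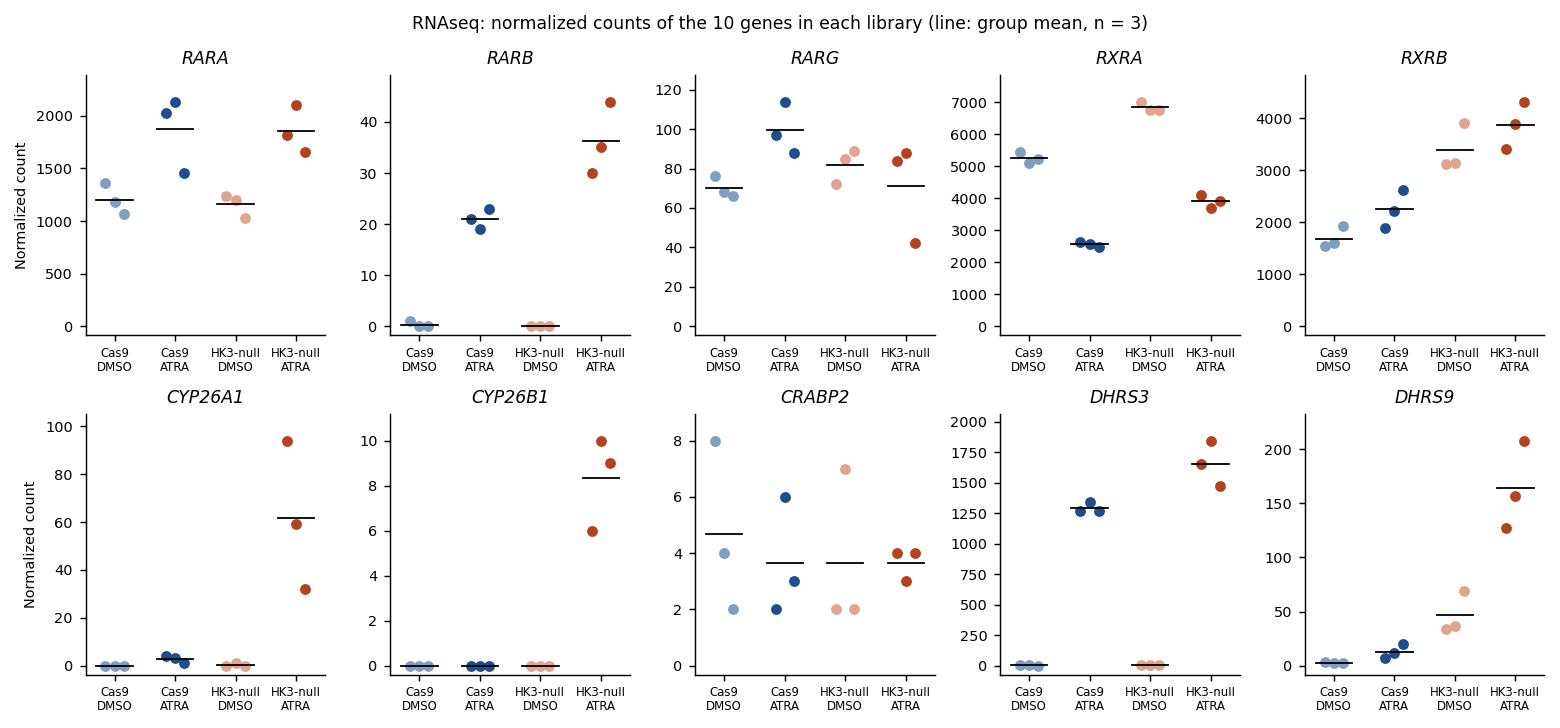
Normalized counts (y axis, linear, from 0) of each of the 10 genes in the 12 RNAseq libraries by group (x axis), with a point for each replicate and a line at the group mean. DHRS3 and RARB separate ATRA from DMSO in both genotypes, whereas CYP26A1 at 32 to 94 and CYP26B1 at 6 to 10 stand out in the ATRA libraries labelled HK3-null.

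Among the retinoic acid receptors, RARA was the abundant member in all groups. RARA (chr17:40309180-40357643) had 1361, 1179 and 1066 normalized counts in Cas9 control DMSO and 2030, 2137 and 1457 in Cas9 control ATRA. Under the HK3-null label it had 1242, 1200 and 1033 in DMSO and 1814, 2103 and 1661 in ATRA. Every ATRA library was therefore above every DMSO library of its genotype, while the genotypes overlapped. On the log2(normalized count + 1) scale RARA was higher in ATRA by 0.63 (standard error 0.14, adjusted p = 0.00381, limma) in Cas9 control and by 0.68 (standard error 0.14, adjusted p = 0.00171, limma) under the HK3-null label, less than 2-fold in both. Between genotypes the RARA difference was −0.05 in DMSO (95% interval −0.37 to 0.26) and 0.00 in ATRA (95% interval −0.31 to 0.32).

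RARB, the receptor gene that carries the response element shown above, went from absent or nearly so to a low level. RARB (chr3:24829321-25597932) had 1, 0 and 0 normalized counts in Cas9 control DMSO and 21, 19 and 23 in Cas9 control ATRA. Under the other label RARB was at 0 in all 3 DMSO libraries and at 30, 35 and 44 in ATRA. The ATRA libraries thus lay far above DMSO in both genotypes, and those labelled HK3-null lay above all 3 of Cas9 control. In Cas9 control the ratio of ATRA to DMSO was 68.6, with a 95% exact counting interval of 11.8 to 2758 because 1 count stands below it, and under the HK3-null label RARB was higher by at least 12.5-fold, taking 3 counts per library as the floor. Both responses passed (adjusted p = 1.48e-06 and 9.98e-08, limma). RARB passed the filter on low values, a group mean log2 value above 3, only through the ATRA groups. These tests are therefore not independent of the filter. The genotype difference in ATRA, a ratio of 1.73 and a log2 difference of 0.75 (95% interval −0.01 to 1.51), missed the threshold (adjusted p = 0.0802, limma), and without Cas9 control DMSO replicate 1 it passed (adjusted p = 0.0366, limma; range over the alternatives 0.00333 to 0.787).

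RARG, the third receptor, kept to a narrow range. RARG (chr12:53210569-53232209) had 76, 68 and 66 normalized counts in Cas9 control DMSO and 97, 114 and 88 in Cas9 control ATRA. RARG under the HK3-null label had 72, 85 and 89 in DMSO and 84, 88 and 42 in ATRA. The Cas9 control groups did not overlap, while replicate 3 lay far below the rest in HK3-null ATRA. The log2 difference between ATRA and DMSO was 0.50 in Cas9 control (adjusted p = 0.122, limma) and −0.27 under the HK3-null label (adjusted p = 0.391, limma), and the test of the difference between the 2 responses missed the threshold (−0.76, adjusted p = 0.214, limma). Between genotypes in ATRA the RARG difference of −0.54 missed the threshold (adjusted p = 0.0731, limma) and passed with the replicate number as a block (adjusted p = 0.0326, limma), without HK3-null ATRA replicate 1 (adjusted p = 0.0438, limma) and without replicate 2 (adjusted p = 0.0318, limma). Without HK3-null ATRA replicate 3 the response in Cas9 control passed (adjusted p = 0.0196, limma), because the fit pools its spread over all groups.

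Of the retinoid X receptors, which partner the retinoic acid receptors and several other nuclear receptors, RXRA fell with ATRA and RXRB did not. RXRA (chr9:134326455-134440585) had 5430, 5082 and 5223 normalized counts in Cas9 control DMSO and 2641, 2570 and 2459 in Cas9 control ATRA. RXRA under the HK3-null label had 7017, 6762 and 6760 in DMSO and 4086, 3698 and 3925 in ATRA. None of the 4 groups overlapped, and both levels were higher under the HK3-null label. RXRA fell by 1.04 on the log2 scale in Cas9 control (standard error 0.05, adjusted p = 1.49e-08, limma) and by 0.81 under the HK3-null label (standard error 0.05, adjusted p = 9.08e-08, limma). The first of these is just past 2-fold and was −0.95, under it, after quantile normalization. RXRA was higher under the HK3-null label by 0.38 in DMSO (adjusted p = 5.3e-05, limma) and by 0.61 in ATRA (adjusted p = 7.63e-07, limma). The difference between the 2 ATRA responses, 0.22, missed the threshold (adjusted p = 0.0888, limma) and passed with the replicate block (adjusted p = 0.00994, limma).

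RXRB (chr6:33193588-33200853) had 1533, 1597 and 1927 normalized counts in Cas9 control DMSO and 1890, 2218 and 2624 in Cas9 control ATRA. RXRB under the HK3-null label had 3119, 3140 and 3903 in DMSO and 3413, 3880 and 4318 in ATRA. Every library labelled HK3-null was above every Cas9 control library, and within a genotype the treatments overlapped. The genotype difference in DMSO was 1.01 ± 0.14 (standard error, adjusted p = 3.7e-05, limma), and that in ATRA was 0.79 ± 0.14 (adjusted p = 0.000234, limma). It stood on a chromosome whose genes moved as a whole: the median log2 difference of the 608 tested genes of chromosome 6 was 0.53 in DMSO and 0.56 in ATRA, against −0.04 to 0.05 for the chromosomes of the other 9 genes. With the chromosome's median subtracted, RXRB was 0.48 higher in DMSO (adjusted p = 0.01, limma) and 0.23 higher in ATRA, which no longer passed (adjusted p = 0.168, limma). Without Cas9 control DMSO replicate 1 the DMSO difference was 0.94, just under 2-fold. With ATRA, RXRB was 0.41 higher in Cas9 control (adjusted p = 0.028, limma) and 0.19 higher under the HK3-null label (adjusted p = 0.254, limma), where it passed with the replicate block (adjusted p = 0.00329, limma). In Cas9 control the RXRB difference missed the threshold without DMSO replicate 1 or 2 (adjusted p = 0.0983 and 0.0861, limma) and without ATRA replicate 2 or 3 (adjusted p = 0.0642 and 0.117, limma). The difference between the 2 responses was −0.21 (adjusted p = 0.579, limma, and 0.039 with the block). RXRG, the remaining retinoid X receptor and no member of the group, was at 0 in 10 of 12 libraries.

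**Figure D2:**
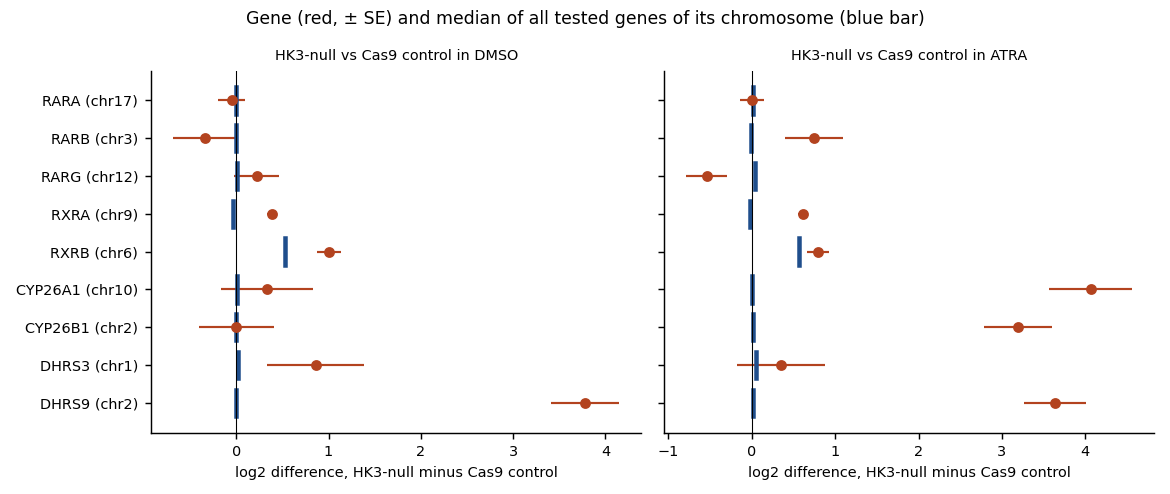
Log2 differences between HK3-null-labelled and Cas9 control libraries (x axis) of the 9 tested genes (red points, bars ± standard error) in DMSO and in ATRA, with the median of all tested genes of the same chromosome as a blue bar. For RXRB the chromosome bar sits at 0.53 and 0.56, and for the other genes it lies close to 0.

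The CYP26 hydroxylases, which clear retinoic acid, were the 2 of the 9 tested genes whose ATRA response differed between the genotypes without the replicate block. CYP26A1 (chr10:93073475-93077885) was at 0 in all 3 Cas9 control DMSO libraries and at 4, 3 and 1 normalized counts in Cas9 control ATRA. CYP26A1 under the HK3-null label had 0, 1 and 0 in DMSO and 94, 59 and 32 in ATRA. The 3 HK3-null ATRA libraries were apart from all 9 others, although they differed among themselves by nearly 3-fold. Under the HK3-null label the ratio of ATRA to DMSO was 204, with a 95% exact counting interval of 36.1 to 8086 (adjusted p = 1.41e-06, limma). In Cas9 control the rise passed the test (1.77, adjusted p = 0.0117, limma), but both means, 0 and 2.67, lie under 3 counts per library, so no fold is given for that pair, and with a pseudocount of 10 it did not pass (adjusted p = 0.311, limma). Within ATRA, the ratio of HK3-null-labelled to Cas9 control libraries was 21.9 for CYP26A1, which rests on an estimated 187 counts against 8 in all 3 libraries (95% exact counting interval 10.9 to 51.5, adjusted p = 1.33e-05, limma). The difference between the responses was 3.73 on the log2 scale (standard error 0.70, adjusted p = 0.00489, limma).

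CYP26B1 (chr2:72129238-72147862) was at 0 in 9 libraries and had 6, 10 and 9 normalized counts in the ATRA libraries labelled HK3-null. CYP26B1 was at least 2.87-fold higher there than in DMSO (adjusted p = 2.94e-05, limma) and at least 2.48-fold higher than in Cas9 control ATRA (adjusted p = 1.94e-05, limma), against 3 counts per library. The difference between the responses was 3.20 (standard error 0.57, adjusted p = 0.00381, limma). A count of 0 in a library allows up to 3 counts, so low CYP26B1 RNA in the other groups was not detectable at this depth. Both CYP26 genes passed the filter on low values, a group mean log2 value above 3, only through HK3-null ATRA, so that their entry favoured a difference between that group and the others, and the tests above are not independent of it. With no filter on the 19671 genes then in the fit, the differences between responses had adjusted p = 0.00597 for CYP26A1 and 0.000335 for CYP26B1 (limma). On the log2 values exactly as deposited, where 0 is written as a large negative number, neither difference between responses passed (CYP26A1 adjusted p = 0.884 and CYP26B1 adjusted p = 0.258, limma), nor did the genotype difference of CYP26A1 in ATRA (adjusted p = 0.123, limma).

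CRABP2, the carrier of retinoic acid, stayed at the edge of detection. CRABP2 (chr1:156699606-156705784) had 8, 4 and 2 normalized counts in Cas9 control DMSO and 2, 6 and 3 in Cas9 control ATRA, and under the HK3-null label 2, 7 and 2 in DMSO and 4, 3 and 4 in ATRA. All 4 groups overlapped. It did not pass the filter on low values and is the 1 gene of the 10 left untested. Without the filter its log2 difference between ATRA and DMSO was −0.23 in Cas9 control (95% interval −1.35 to 0.89, adjusted p = 0.806, limma) and 0.16 under the HK3-null label (95% interval −0.96 to 1.28, adjusted p = 0.918, limma), and a change within these intervals was not detectable at this depth.

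DHRS3, the retinaldehyde reductase, gave the largest difference of the 9 tested genes on the log2(normalized count + 1) scale in both genotypes. The folds of RARB, CYP26A1 and CYP26B1 rest on 0 or 1 count in DMSO and cannot be ranked against it, and on the log2 values as deposited RARB differed by 15.13 and DHRS3 by 9.08 under the HK3-null label. DHRS3 (chr1:12567910-12618210) had 5, 1 and 0 normalized counts in Cas9 control DMSO and 1267, 1342 and 1267 in Cas9 control ATRA. DHRS3 under the HK3-null label had 2, 2 and 7 in DMSO and 1653, 1842 and 1471 in ATRA. The treatments lay far apart with no overlap, and the ATRA libraries labelled HK3-null all lay above those of Cas9 control. The ratio of ATRA to DMSO was 616 in Cas9 control (95% exact counting interval 299 to 1533) and 534 under the HK3-null label (290 to 1113), with adjusted p = 4.24e-08 and 4.28e-08 (limma). DHRS3 passed the filter on low values only through the ATRA groups, so these tests are not independent of it. The genotype difference within ATRA was 0.35 (standard error 0.53, adjusted p = 0.583, limma). The fit pools its spread over all groups, so this standard error also holds that of the low DMSO counts. It does not measure the spread of the ATRA libraries alone. In DMSO the difference of 0.86 missed the threshold (adjusted p = 0.183, limma) and was 1.56 without Cas9 control DMSO replicate 1, the library with 5 counts (adjusted p = 0.00584, limma).

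DHRS9, the other dehydrogenase, differed by genotype with and without ATRA. DHRS9 (chr2:169067077-169096167) had 3, 2 and 2 normalized counts in Cas9 control DMSO and 7, 12 and 20 in Cas9 control ATRA. DHRS9 under the HK3-null label had 34, 37 and 69 in DMSO and 127, 157 and 208 in ATRA. No 2 groups overlapped, and the DMSO libraries labelled HK3-null exceeded the Cas9 control libraries in ATRA. DHRS9 was higher under the HK3-null label by 3.78 in DMSO (standard error 0.37; limma, adjusted p = 2.27e-06), a ratio of 18.3 with a 95% exact counting interval of 9.03 to 43.2, and by 3.64 in ATRA (standard error 0.37, adjusted p = 2.71e-06, limma), a ratio of 12.6. With ATRA it rose by 1.97 in Cas9 control (adjusted p = 0.000957, limma) and by 1.83 under the HK3-null label (adjusted p = 0.00116, limma), and the difference between these responses was −0.14 (95% interval −1.28 to 1.00, adjusted p = 0.922, limma).

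Set against each other per kilobase of annotated exon, the 10 genes formed tiers. In Cas9 control DMSO the group means were 434 normalized counts per kb for RXRA, 433 for RXRB and 253 for RARA, followed by 13.7 for RARG, 4.31 for CRABP2, 0.622 for DHRS9, 0.569 for DHRS3 and 0.0353 for RARB, with both CYP26 genes at 0. RXRA and RXRB overlapped there, as did DHRS9, DHRS3 and RARB in turn. In Cas9 control ATRA the order was RXRB at 576, RARA at 395, DHRS3 at 368 and RXRA at 212, so that DHRS3 moved into the tier of the receptors and overlapped RARA. In HK3-null ATRA the order was RXRB at 993, DHRS3 at 471, RARA at 392, RXRA at 323, DHRS9 at 43.7 and CYP26A1 at 20.8, with CYP26B1 lowest at 1.72. DHRS3 and RARA overlapped there too, as did CYP26A1 and RARG, and RARB and CRABP2. These lengths join the exons of all annotated transcripts and so understate genes with many isoforms, RARB among them.

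**Figure D3:**
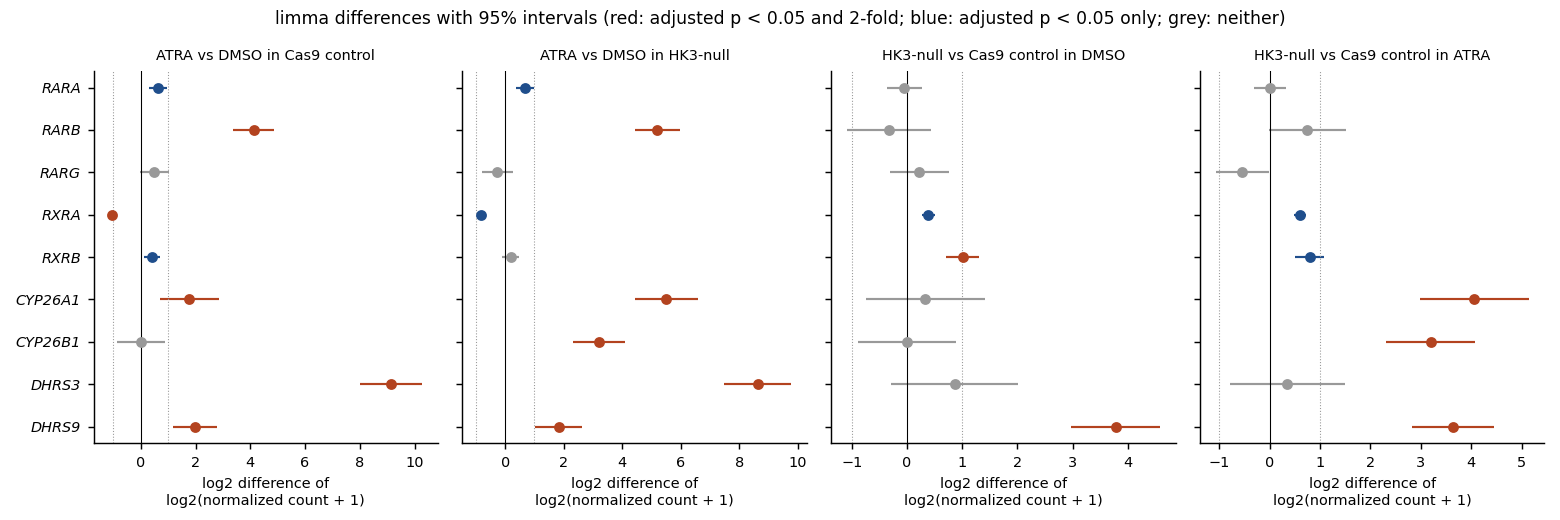
Log2 differences on the log2(normalized count + 1) scale (x axis, points) with 95% intervals (bars) of the 9 tested genes in 4 comparisons. In both ATRA comparisons DHRS3 lies furthest to the right at 9.14 and 8.63, and in the genotype comparisons DHRS9 lies at 3.78 and 3.64.

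Counted by the threshold used for the whole table, an adjusted p under 0.05 and at least 2-fold, ATRA raised 4 of the 9 tested genes in Cas9 control (RARB, CYP26A1, DHRS3 and DHRS9), where 7.26% of all 13256 tested genes were called higher, and lowered 1 (RXRA), where 3.19% were called lower. The CYP26A1 call compares means of 0 and 2.67, both under 3 counts per library. It did not pass with a pseudocount of 10 (adjusted p = 0.311, limma). Higher calls made up 69.5% of all calls with ATRA in Cas9 control, and 55.4% after quantile normalization. ATRA raised 5 under the HK3-null label, the 4 just named and CYP26B1, against 8.83% of all genes called higher, and none was called lower against 6.51%. By adjusted p alone 7 genes passed in each genotype, and 43.1% and 51.1% of all genes did. Between genotypes 2 of 9 were called higher under the HK3-null label in DMSO (RXRB and DHRS9), against 11.5% of all genes, and none lower, against 8.75%. In ATRA 3 were called higher (CYP26A1, CYP26B1 and DHRS9), against 12.4%, and none lower, against 10.6%. By adjusted p alone 3 genes passed in DMSO and 5 in ATRA, against 56.7% and 61.6% of all genes. The difference between the ATRA responses passed for 2 of 9, CYP26A1 and CYP26B1, against 9.97% of all genes, which is 1321 genes, or 3182 with the replicate block. With that block RXRA and RXRB passed too (adjusted p = 0.00994 and 0.039, limma). These counts are a description and support nothing further, since CYP26A1 and CYP26B1 passed the filter only through HK3-null ATRA, and RARB and DHRS3 only through the 2 ATRA groups. DHRS9 passed it through every group but Cas9 control DMSO. With no filter all 10 genes were in the fit and the same genes were called, 4 higher and 1 lower for ATRA in Cas9 control (5.34% and 2.37% of all 19671 genes) and 5 higher under the HK3-null label (6.48%), with 2 and 3 higher between genotypes in DMSO and ATRA (8.59% and 9.38%). The comparisons within a genotype and within a treatment share libraries, so their counts are not independent.

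In chromatin, the 9 ATACseq regions came from a table in which the smallest ATRA contrast of HK3-null-labelled with Cas9 control libraries, over all 8286 regions, was 1.65-fold. That comparison chose the regions, so its values are given without a test, and the ATRA libraries of the other comparisons took part in the choice. Regions kept for a genotype contrast in ATRA can be expected to differ by genotype in DMSO too. The genotype tests of regions in DMSO, here and below, are therefore not independent of that choice either. Of the 9 regions, 7 had a mean signal over the 25th percentile and were tested. In DMSO 5 of the 7 were lower under the HK3-null label, all 4 of RXRA and the 1 of RXRB, against 43.9% of all 6214 tested regions called lower, and 1, of RARB, was higher, against 42.7%. With ATRA 1 of 7, of DHRS9, was lower in Cas9 control against 15.6% called lower, with none higher against 2.54%. Under the HK3-null label 1, of RXRA, was lower against 11.8%, with none higher against 5.04%. Higher calls were 14.0% of all ATRA calls in Cas9 control and 29.9% under the HK3-null label, and 42.2% and 44.8% after quantile normalization. The share of 14.0% in Cas9 control was 4.08% without Cas9 control ATRA replicate 1 and 26.4% without ATRA replicate 2. Quantile normalization also moved the median difference over all regions by 0.34 and 0.17, and by 0.16 between genotypes in DMSO. Signal is the fragment density after all libraries had been reduced to 1 number of tags, and its depth is unknown.

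**Figure D4:**
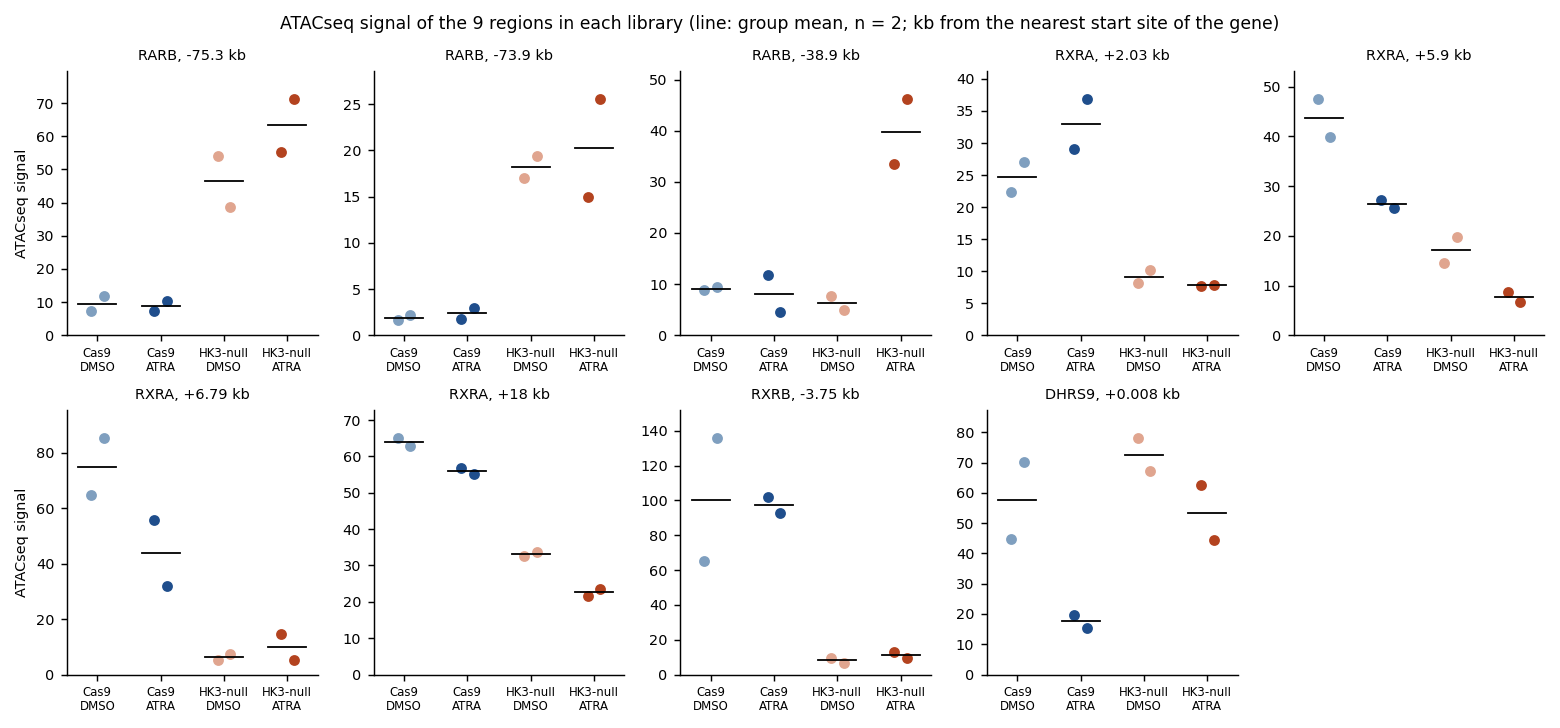
ATACseq signal (y axis, linear, from 0) of the 9 regions in the 8 libraries by group (x axis), with a point for each replicate and a line at the group mean; titles give the gene and the distance in kb from its nearest start site. The 3 RARB regions are high under the HK3-null label in ATRA, the 4 RXRA regions and the RXRB region are low under it in both treatments, and the DHRS9 region is lowest in Cas9 control ATRA. The genotype contrast in ATRA chose the regions.

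The 4 regions of RXRA all lay inside the gene, and their signal was lower under the HK3-null label, whose RXRA RNA was higher. The region at chr9:134385895-134386286, over an annotated RXRA exon, had 64.8 and 85.2 in Cas9 control DMSO and 5.17 and 7.58 in HK3-null DMSO, a log2(signal + 1) difference of −3.37 (standard error 0.41, adjusted p = 8.23e-09, limma). In ATRA it had 55.7 and 32.0 in Cas9 control and 14.8 and 5.42 under the HK3-null label. The genotypes did not overlap in DMSO, nor in ATRA, the contrast that chose the regions. The intronic region at chr9:134384867-134385527, 5.9 kb after a start site, had 47.5 and 39.9 in Cas9 control DMSO and 27.1 and 25.6 in Cas9 control ATRA. That region had, under the HK3-null label, 14.6 and 19.8 in DMSO and 8.8 and 6.65 in ATRA. It was lower with ATRA in both genotypes without overlap, as RXRA RNA was, with differences of −0.70 in Cas9 control (adjusted p = 0.219, limma) and −1.05 under the HK3-null label (adjusted p = 0.0493, limma; range over the alternatives 0.0416 to 0.381). The latter missed the threshold with the replicate block (adjusted p = 0.0601, limma), after quantile normalization (0.115), with 10 added before the log (0.076) and with no filter on low signal (0.0548). It also missed it when any 1 of 6 libraries was left out, the 4 labelled HK3-null and the 2 of Cas9 control DMSO (adjusted p from 0.0574 to 0.381, limma). The HK3-null ATRA libraries of this region belong to the genotype contrast in ATRA that chose the regions. The test of −1.05 is therefore not independent of that choice. The middle 300 bases of the region, chr9:134385048-134385347, are shown because it is the only RXRA region called with ATRA.
RXRA region: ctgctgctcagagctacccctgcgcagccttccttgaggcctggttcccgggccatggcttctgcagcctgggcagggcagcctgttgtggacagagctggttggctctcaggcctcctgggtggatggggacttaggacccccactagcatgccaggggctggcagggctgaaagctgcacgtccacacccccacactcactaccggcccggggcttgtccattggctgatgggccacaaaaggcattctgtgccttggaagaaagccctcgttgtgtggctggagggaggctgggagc
The intronic region at chr9:134344239-134344668 had 65.0 and 63.0 in Cas9 control DMSO, 56.8 and 55.2 in Cas9 control ATRA, 32.6 and 33.7 in HK3-null DMSO and 21.6 and 23.5 in HK3-null ATRA. The one at chr9:134328356-134328612, 2.03 kb after the first start site, had 22.4 and 27.0 in Cas9 control DMSO, 29.1 and 36.9 in Cas9 control ATRA, 8.12 and 10.1 in HK3-null DMSO and 7.75 and 7.88 in HK3-null ATRA. In DMSO the genotype differences were −1.31 for the region 5.9 kb after a start site, −0.93 for that at chr9:134344239-134344668 and −1.34 for that 2.03 kb after the first start site (adjusted p = 0.0021, 0.00696 and 0.003, limma). The second of these missed the threshold without Cas9 control DMSO replicate 1 (adjusted p = 0.0542, limma) and without HK3-null DMSO replicate 1 (adjusted p = 0.0619, limma). In the last region the ATRA libraries lay above DMSO in Cas9 control and below DMSO under the HK3-null label, and the 2 differences of 0.40 and −0.19 did not pass (adjusted p = 0.563 and 0.808, limma). The genotype contrast in ATRA that chose the regions favoured such opposite directions.

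The region listed with RXRB lies upstream, at −3.75 kb from its start site, at chr6:33204445-33204763, and overlaps an exon of HSD17B8, a hydroxysteroid dehydrogenase gene that the annotation lists too. It had 65.1 and 136 in Cas9 control DMSO and 9.6 and 6.7 in HK3-null DMSO, with 102 and 92.7 in Cas9 control ATRA and 12.9 and 9.4 in HK3-null ATRA. The genotypes were apart in both treatments, by −3.40 in DMSO (standard error 0.36, adjusted p = 4.4e-10, limma). The 209 bases before that exon, chr6:33204446-33204654, are shown because signal there was low where RXRB RNA was high.
RXRB region: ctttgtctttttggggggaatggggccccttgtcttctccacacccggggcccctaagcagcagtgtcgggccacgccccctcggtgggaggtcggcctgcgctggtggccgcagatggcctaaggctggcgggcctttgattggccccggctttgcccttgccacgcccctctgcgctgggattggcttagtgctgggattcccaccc
HSD17B8, named here after its values were seen, had 76, 74 and 95 normalized counts in Cas9 control DMSO and 7, 14 and 6 under the HK3-null label, a log2 difference of −3.12 (standard error 0.33, adjusted p = 4.35e-06, limma). The annotation also lists SLC39A7, RING1 and the microRNA gene MIR219A1, which was not looked up. SLC39A7, a zinc transporter gene, had a mean of 5110 in Cas9 control DMSO and 6597 under the HK3-null label, a log2 difference of 0.37 (adjusted p = 5.48e-05, limma) that was −0.16 with the median of chromosome 6 subtracted (adjusted p = 0.0224, limma). RING1, a Polycomb subunit gene, had means of 1127 and 1575, a log2 difference of 0.48 (adjusted p = 1.97e-05, limma) that was −0.045 with that median subtracted (adjusted p = 0.559, limma). Of the listed genes with values here, HSD17B8 was thus lower and the other 3, RXRB among them, higher in normalized counts under the HK3-null label.

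The 3 regions listed with RARB lie inside the RefSeq span of the gene and away from its start sites, and none overlaps an annotated RARB exon. The region at chr3:25265307-25265759, at −75.3 kb from the nearest start site, had 7.21 and 11.7 in Cas9 control DMSO and 54.0 and 38.7 in HK3-null DMSO, a difference of 2.19 (standard error 0.38, adjusted p = 4e-06, limma). In ATRA it had 7.23 and 10.2 in Cas9 control and 55.4 and 71.2 under the HK3-null label. The region at chr3:25266771-25266992 had 1.6 and 2.14 in Cas9 control DMSO, 1.71 and 3.0 in Cas9 control ATRA, 17.0 and 19.4 in HK3-null DMSO and 15 and 25.6 in HK3-null ATRA. Both were thus high under the HK3-null label in DMSO too, where RARB RNA was at 0. The third region, at chr3:25389124-25389597 and at −38.9 kb from the start site that carries the response element, had 8.79 and 9.36 in Cas9 control DMSO, 11.7 and 4.57 in Cas9 control ATRA and 7.64 and 4.86 in HK3-null DMSO, but 33.4 and 46.2 in HK3-null ATRA. It was high only in the 2 libraries of that group, with a mean of 39.8 against 6.25 in DMSO. Those libraries belong to the genotype contrast in ATRA that chose the regions. The ATRA test of this region is therefore not independent of that choice. This region and the one before it fell under the filter on low signal. With all regions in the fit, the ATRA difference of the third was 2.5 under the HK3-null label (adjusted p = 0.000787, limma) and −0.26 in Cas9 control (adjusted p = 0.79, limma). The difference between the 2 was not tested. Its middle 300 bases, chr3:25389211-25389510, are shown because its 2 high libraries belong to the group with the highest RARB RNA.
RARB region: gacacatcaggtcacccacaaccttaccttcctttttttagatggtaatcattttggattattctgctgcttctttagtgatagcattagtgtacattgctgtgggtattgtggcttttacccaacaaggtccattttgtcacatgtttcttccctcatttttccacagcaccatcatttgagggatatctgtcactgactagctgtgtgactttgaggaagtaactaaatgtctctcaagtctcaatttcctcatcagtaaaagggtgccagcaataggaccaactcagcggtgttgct

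The region of DHRS9, chr2:169069371-169069772, covers the second start site of the gene and its first exon there. It had 44.8 and 70.1 in Cas9 control DMSO and 19.7 and 15.5 in Cas9 control ATRA, with 78.0 and 67.2 in HK3-null DMSO and 62.5 and 44.5 in HK3-null ATRA. Signal was lower in ATRA in both genotypes without overlap, whereas DHRS9 RNA rose. The difference was −1.63 in Cas9 control (standard error 0.32, adjusted p = 0.000339, limma) and −0.45 under the HK3-null label (adjusted p = 0.387, limma), and the difference between them was not tested. The low Cas9 control ATRA libraries of this region belong to the genotype contrast in ATRA that chose the regions. The test of −1.63 is therefore not independent of that choice. In DMSO, where DHRS9 RNA was 18.3-fold higher under the HK3-null label, the signal differed by 0.36 with overlapping libraries (adjusted p = 0.282, limma). The bases of the region before the exon, chr2:169069372-169069452, which end short of that start site, are shown because signal in the region was lower with ATRA while DHRS9 RNA rose.
DHRS9 region: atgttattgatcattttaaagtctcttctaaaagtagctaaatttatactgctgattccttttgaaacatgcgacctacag
The response element repeat was found in 0 of the 9 regions, and 33 of the 8286 regions, or 0.398%, held it in their middle 200 bases.

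Of the wider pathway, the first list held 48 genes of vitamin A uptake, storage and metabolism, of which 47 were measured and 21 tested, 17 of them besides the 10. With ATRA in Cas9 control 3 of the 17 rose and 1 fell (median log2 difference −0.13, against 0.00 over all tested genes), where 7.26% of all tested genes were called higher and 3.19% lower. AKR1C3, a reductase of steroids and retinaldehyde, rose from 5.0 ± 2.0 to 129 ± 7.77 normalized counts (SD, n = 3), ADH1C, an alcohol dehydrogenase, from 0 to 9.67 ± 3.06 (SD, n = 3), and RDH5, a retinol dehydrogenase, from 6.33 ± 1.15 to 16.3 ± 6.03 (SD, n = 3). ALDH1A1, which makes retinoic acid from retinaldehyde, fell from 56.0 ± 11.5 to 15.3 ± 7.57 (SD, n = 3). AKR1C3 and ADH1C have near-identical paralogs, so their reads may be shared. Under the HK3-null label 2 rose with ATRA, AKR1C3 from 0 to 12.7 ± 0.577 and ADH1C from 0 to 8.0 ± 2.65 (SD, n = 3), and 1 fell, the fatty acid and retinoic acid carrier FABP5, from 1398 ± 39.3 to 625 ± 110 (SD, n = 3; median −0.23, against 0.01), beside 8.83% and 6.51% of all genes. Between genotypes ALDH1A1, the lipase PNPLA4 and AKR1C3 were called lower under the HK3-null label in both treatments. In DMSO, ALDH1A1 had 4.33 ± 2.08 against 56.0 ± 11.5 and PNPLA4 48.3 ± 1.53 against 356 ± 18.7 normalized counts (SD, n = 3). RDH10 and DGAT1 were called higher in DMSO by 1.37 and 1.19, and both lie on chromosome 8, where the median difference was 1.09, so that neither passed with it subtracted (adjusted p = 0.142 and 0.245, limma). Of the 17 genes 2 were called higher and 3 lower in DMSO, where 11.5% and 8.75% of all genes were, and 0 and 3 in ATRA, beside 12.4% and 10.6%. The list's median was 0.04 in DMSO and −0.10 in ATRA, against 0.00 and 0.01 over all tested genes.

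The second list, of 30 retinoid receptors and coregulators, had 24 tested genes besides the receptors already described, and most did not move by 2-fold. The coactivator NCOA3 rose with ATRA from 502 ± 15.9 to 3780 ± 375 normalized counts in Cas9 control (SD, n = 3; log2 difference 2.91, adjusted p = 4.71e-11, limma) and from 940 ± 45.6 to 6384 ± 530 under the HK3-null label (SD, n = 3; 2.76, adjusted p = 7.89e-11, limma). ZBTB16, the repressor also known as PLZF, fell from 571 ± 59.7 to 121 ± 30.4 and from 705 ± 84.3 to 62.0 ± 16.5 (SD, n = 3). In Cas9 control 1 of the 24 rose and 2 fell, the other being the corepressor subunit TBL1X, which fell by 1.4, where 7.26% of all genes were called higher and 3.19% lower. With the HK3-null label 2 rose and 3 fell, where the acetyltransferase KAT2B rose by 1.33 and the arginine methyltransferases PRMT1 and CARM1 fell by 1.10 and 1.01, beside 8.83% and 6.51% of all genes. The list's medians with ATRA were 0.02 and −0.01, close to those of all genes. Between genotypes the coactivator NCOA2 was called higher by 1.42 and NCOA1 lower, by −1.02, in DMSO. In ATRA TBL1X at 1.90 and NCOA2 at 1.22 were called higher and PML at −1.07 lower. These are 1 and 1 of 24 in DMSO, beside 11.5% and 8.75% of all genes, and 2 and 1 in ATRA, beside 12.4% and 10.6%. NCOA2 lies on chromosome 8 and PML on chromosome 15, whose genes differed by a median of 1.05 and −0.97 in ATRA, and neither passed in ATRA with these subtracted (adjusted p = 0.226 and 0.32, limma), while NCOA2 passed in DMSO at 0.32 (adjusted p = 0.0285, limma).

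Of 13 other receptors that pair with RXR, 9 were tested. With ATRA in Cas9 control NR1H3, a sterol receptor, rose from 51.7 ± 10.02 to 174 ± 71.7 and PPARD, a fatty acid receptor, from 77.7 ± 14.6 to 175 ± 43.8 normalized counts (SD, n = 3), and PPARG fell from 6.67 ± 2.89 to 1.67 ± 1.15 (SD, n = 3). With the HK3-null label PPARA rose from 174 ± 10.7 to 582 ± 112 and PPARD from 188 ± 53.4 to 542 ± 180 (SD, n = 3). PPARG, the fatty acid receptor of macrophages and fat cells, stood out between genotypes, with 78.3 ± 15.6 against 6.67 ± 2.89 in DMSO (log2 difference 3.41, adjusted p = 2.6e-06, limma) and 94.0 ± 16.5 against 1.67 ± 1.15 in ATRA (5.22, adjusted p = 4.99e-08, limma; SD, n = 3). PPARG passed the filter on low values only through the groups labelled HK3-null, where it was high, so these tests are not independent of it. Its mean of 1.67 in Cas9 control ATRA also lies under 3 counts per library. PPARD was higher too under the HK3-null label, by 1.25 and 1.60, NR4A1 was called lower in DMSO at −1.14, and THRA in ATRA at −1.03. PPARD lies on chromosome 6 and was 0.72 and 1.04 higher with its median subtracted. These counts, 2 higher and 1 lower in Cas9 control, 2 and 0 under the HK3-null label and 2 and 1 in each genotype comparison, stand beside the shares of all genes given above. The medians over the 9 were 0.20 and 0.26 for the ATRA responses and 0.34 and 0.33 for the genotype differences.

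The fourth list, of 25 genes known to respond to ATRA in myeloid cells, was fully tested. ATRA raised 18 of the 25 in Cas9 control (median 2.5) and 21 under the HK3-null label (median 2.09), and lowered none. Of all tested genes 7.26% and 8.83% were called higher, and 3.19% and 6.51% lower. TGM2, the tissue transglutaminase, rose from 4.33 ± 4.93 to 1047 ± 309 normalized counts in Cas9 control and from 6.67 ± 4.62 to 33889 ± 4773 under the HK3-null label (SD, n = 3). Its response differed by 4.28 (adjusted p = 0.00319, limma), in the direction of CYP26A1. CD38, an ectoenzyme with a retinoic acid response element of its own, rose from 5.0 ± 1.0 to 5509 ± 561 and from 191 ± 14.4 to 7178 ± 700 (SD, n = 3), and its response was smaller under the HK3-null label by −4.63 (adjusted p = 4e-08, limma). HIC1 rose by 9.83 and 9.47, and ICAM1 by 7.33 and 5.04. The response was larger under the HK3-null label for 5 of the 25 and smaller for 8 by the test of the difference, which 4.79% and 5.18% of all genes passed in these directions. In DMSO 9 of the 25 were called higher under the HK3-null label and 2 lower (median 0.63), and in ATRA 10 higher and 1 lower (median 0.65), against 0.00 and 0.01 over all tested genes. The shares of all genes called were 11.5% higher and 8.75% lower in DMSO, and 12.4% and 10.6% in ATRA.

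**Figure D5:**
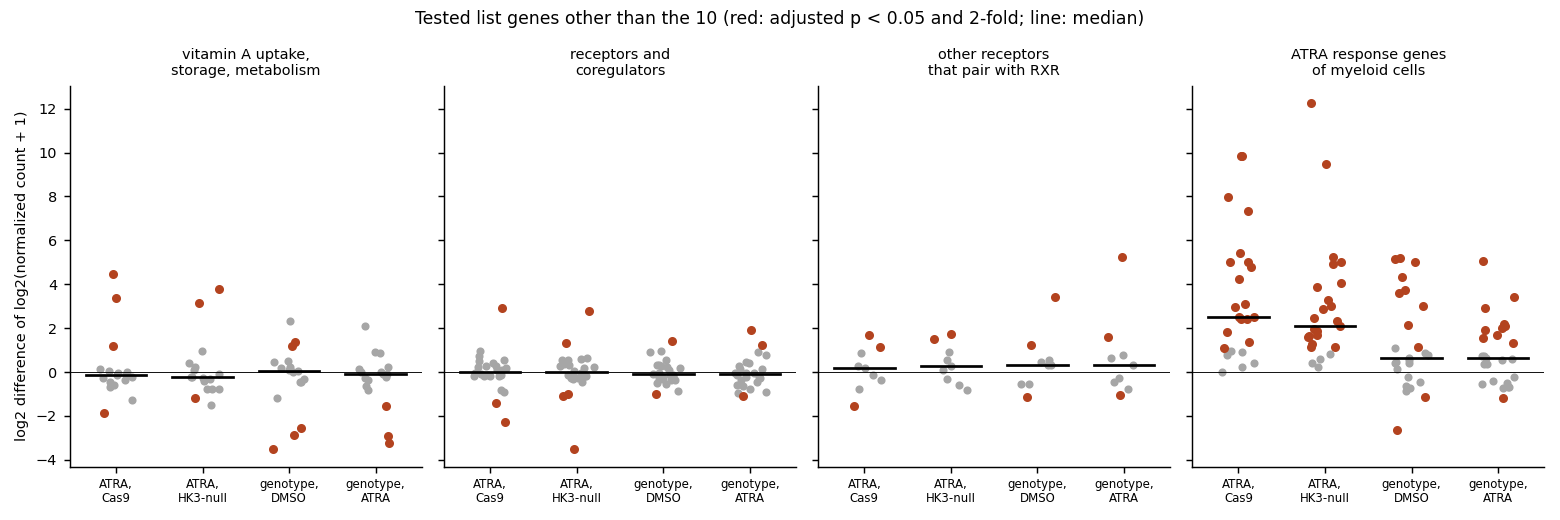
Log2 differences on the log2(normalized count + 1) scale (y axis) of the tested genes of 4 lists, leaving out the 10 genes, in the ATRA comparisons and the genotype comparisons (x axis), with called genes in red and the list's median as a line. The ATRA response genes sit at medians of 2.5 and 2.09 with ATRA, while the medians of the first 3 lists stay between −0.23 and 0.34.

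For the 3 tested genes with the widest range of group means, the genes most alike over the 12 RNAseq libraries were looked up among the 10666 tested genes that averaged 50 or more normalized counts. DHRS3, with a range of 9.49 on the log2 scale, was most like IRF7 (Pearson r = 0.989), IHH (0.987) and HIC1 (0.985). CYP26A1, with a range of 5.84, was most like CSF2RB (0.982), UBAP1 (0.98) and FAM107B (0.98). DHRS9, with a range of 5.61, was most like TSC22D3 (0.99), PBX2 (0.99) and ARHGEF2 (0.989). The libraries fall into 4 groups, so these coefficients describe shared differences between groups and carry no test.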

How the data were processed

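RNAseq was done on 12 and ATACseq on 8 HL60 libraries. The authors mapped RNAseq reads to GRCh38, and the deposited values are log2 of scaled counts rounded to whole numbers, with 0 written as −9.97 on the log2 scale. DESeq2 and MACS2 are named in the submitters' processing notes. The methods text speaks of RPKM, but the deposited log2 values, taken off the log scale, were whole numbers within 0.01 in 100% of the low cases checked. For ATACseq, per the methods the authors aligned reads with bwa mem, called and merged MACS2 peaks and deposited fragment density as a signal. The start convention of region positions is not given in the sources used here.

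The log2(normalized count + 1) values were fitted with limma 3.58.1 (R 4.3.3, 1 mean per group, eBayes with trend). The filter was a group mean log2 value above 3, which left 13256 genes. Calls needed a Benjamini-Hochberg adjusted p under 0.05 and 2-fold, and differences between responses the adjusted p alone. A single gene passes at the adjusted p. ATACseq used log2(signal + 1), regions with a mean signal above 17.1 and 1.5-fold. Scaling factors (0.823 to 1.28) were estimated from the spacing of the whole numbers, floors are 3 counts per library, and counting intervals and floors cover counting error only. The 330 unnamed entries, left out, took up to 0.00926% of a library's counts. Scripts were tested on simulated data.

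Replicate numbers come from the titles. Over 10667 genes, same-numbered RNAseq libraries of different groups deviated together (r = 0.178 to 0.631 in 18 pairs, median 0.359). Differently numbered ones had r = −0.643 to 0.286 in 36 pairs (median −0.191). Deviations cancel within a group, so these sets of r are not independent. The medians stood apart while the ranges overlapped, so the numbers appear to pair the libraries. The p-values come from the fit without a block for this pairing, unless the block is named. 

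The 10 genes and the lists were chosen with earlier results of these data known. The rule named all 10 genes, HK3, at most 4 called list genes in each direction and comparison, and 3 most alike genes for each of 3 genes. Sequences are from RefSeq promoters and the GRCh38 genome, read with pysam 0.24.0. Alternatives were the scale, filter, normalization, block, fold threshold, chromosome medians and leaving out each library.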

Additional observations from a re-analysis of the deposited data

Results flagged for a closer look

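The ATRA response of CYP26A1 RNA was larger in the libraries labelled HK3-null than in Cas9 control by 3.73 on the log2(normalized count + 1) scale, and that of CYP26B1 by 3.20, both past the test of the difference between the responses (adjusted p = 0.00489 and 0.00381, limma). Both genes passed the filter on low values only through HK3-null ATRA, the group where they were high. CYP26A1 was higher with ATRA in 3 of 3 libraries of each genotype, and CYP26B1 in 3 of 3 labelled HK3-null and 0 of 3 of Cas9 control. The RXRA region 2.03 kb after the first start site moved in opposite directions with ATRA, by 0.40 in Cas9 control and −0.19 in the libraries labelled HK3-null on the log2(signal + 1) scale, in 2 of 2 libraries each. The difference between these was not tested, and after quantile normalization the second was 0.11. The region was kept for its genotype contrast in ATRA, where Cas9 control was higher, so that choice itself favoured these opposite directions.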

How the results depend on the processing

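Of 1110 values of the retinoid genes and regions under alternatives, 1053 kept their direction and their side of the threshold, 21 lost a call, 10 gained one and 26 changed sign, and of 137 counts of calls 126 stayed within 1.5 times. With a fold threshold of 1.5 in place of 2 the RNAseq counts were 2688 and 3768 for ATRA in Cas9 control and under the HK3-null label (1386 and 2034 at 2-fold), and 4459 and 5117 between genotypes in DMSO and ATRA (2689 and 3044 at 2-fold). The replicate block gave 3182 differences between responses against 1321, and beside the retinoid results already named changed no other RNAseq call of these genes. For ATACseq the numbers did not pair libraries (r = −0.209 to 0.054 in 12 pairs), and the block gave 1058 ATRA calls in Cas9 control, crossed pairing, chosen after seeing the data, 1228, and the fit without a block 1128. Leaving out 1 library moved the ATACseq ATRA counts to 495 to 1397 in Cas9 control (541 without ATRA replicate 2, 675 without DMSO replicate 1, 495 without DMSO replicate 2) and to 471 to 1166 under the HK3-null label (1046 with all libraries; 690 without ATRA replicate 1, 471 without DMSO replicate 1, 530 without DMSO replicate 2).

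The sign changes were all of differences that missed the threshold. Quantile normalization turned the ATRA difference in Cas9 control of the RARB region at −75.3 kb to 0.21 and of the RXRA region 18.0 kb after a start site to 0.21, that of the RXRA region at 2.03 kb under the HK3-null label to 0.11, the DHRS9 difference between responses to 0.11 and the RARA genotype difference in ATRA to −0.034, which was −0.019 with the chromosome median subtracted. A pseudocount of 10 turned the differences between responses to 0.16 for DHRS3 and 0.78 for DHRS9. Leaving out 1 library, the ATRA difference in Cas9 control ranged from −0.40 to 0.23 for that RARB region and from −0.48 to 0.57 for the RXRB region, and under the HK3-null label from −0.18 to 1.11 for the RXRA region at 6.79 kb and from −0.45 to 0.073 for RARG. The difference between responses ranged from −1.20 to 0.088 for DHRS3, −0.49 to 0.21 for DHRS9 and −0.12 to 0.16 for RARA, and the RARA genotype difference from −0.17 to 0.11 in ATRA and −0.13 to 0.043 in DMSO. The cause was not tested. With 2 ATACseq libraries a group, a left-out fit assumes that the lone library varies like the other groups, and genes near 3 counts per library, CYP26B1 and CRABP2 among them, are limited by depth.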
